A study of Mus musculus with 9 samples.

Results

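The complement components and receptors examined here were 8 genes of the 24054 in the deposited tables, chosen by symbol: the C1q chains *C1qa*, *C1qb* and *C1qc*, the central component *C3*, the alternative pathway genes *Cfb* and *Cfp*, and the anaphylatoxin receptors *C3ar1* and *C5ar1*. All 8 passed the filter on low counts, which kept 14452 genes. Their mRNA was measured in 9 libraries of type 2 dendritic cells from the spleen of C57BL/6 mice, 3 libraries a group: TOM+ cDC2 at postnatal day 8, TOM- DC2 at postnatal day 8, and TOM+ cDC2 of adults (library 91 from mice of 9 weeks, libraries 92 and 95 from mice of 8 weeks). All mice, those of the TOM- group included, were *Clec9a*-Cre/Cre *Rosa*-tdTomato/tdTomato: both copies of *Clec9a*, a gene that dendritic cell precursors switch on, carry Cre, which turns on the red fluorescent protein TOMATO (TOM) in cells with a history of *Clec9a* expression and in their progeny. Every group was sorted as live single cells without autofluorescence that carried MHCII, CD11c and CD11b, and was then divided by TOM. Spleens of the young mice were pooled before sorting, and TOM- cells of adults were not among the libraries. Libraries are named by the number in their deposited names, which was 81, 91 or 92 in both young groups and 91, 92 or 95 in adults.

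Complement is a cascade of plasma proteins that tags particles and cells for uptake. C1q, assembled from the products of *C1qa*, *C1qb* and *C1qc*, binds antibody complexes, dying cells and other surfaces and starts the classical pathway, and unlike most complement proteins, which the liver secretes, it is made chiefly by macrophages and dendritic cells. C3 is the component on which all pathways converge. Factor B, encoded by *Cfb*, supplies the protease of the alternative pathway convertase, and properdin, encoded by *Cfp*, holds that convertase together. C3a and C5a, the small fragments released during activation, act through the G protein-coupled receptors C3aR and C5aR1 on myeloid cells.

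In GENCODE vM21 on GRCm38 (mm10), the build of the authors' alignment, all 8 genes lie on the minus strand. The C1q genes sit side by side on chromosome 4 within 18675 bases that hold no other annotated gene: *C1qb* at chr4:136880129-136886187, *C1qc* at chr4:136889804-136893065 and *C1qa* at chr4:136895917-136898803, with 3 exons each. *C3* (chr17:57203970-57228136) and *Cfb* (chr17:34856374-34862518) are far apart on chromosome 17, *Cfp* is on the X chromosome (chrX:20925454-20931555), *C3ar1* on chromosome 6 (chr6:122847138-122856161) and *C5ar1* on chromosome 7 (chr7:16246743-16259540). *Cfb* overlaps Gm20547, a longer gene model on the same strand that was not among the genes counted, and lies next to *C2*.

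RefSeq promoter entries (GRCm38.p6) matched 6 of the 8 genes; *C1qa* and *Cfb* had none. The 250 bases before the start are shown for *C1qb* and *C1qc*, whose levels ran in parallel, and for *C3* and *C3ar1*, which differed most with age; bases inside the GENCODE gene were left out, which shortened *C1qc* to 99 bases and *C3ar1* to 246. Capitals mark matches, on either strand, to the letters searched, GAGGAA (ETS factors such as PU.1), TGANTCA (AP-1), TTGCNNAA (C/EBP), TATAAA and the interferon response element.
C1qb, chr4:136886201-136886450, minus strand: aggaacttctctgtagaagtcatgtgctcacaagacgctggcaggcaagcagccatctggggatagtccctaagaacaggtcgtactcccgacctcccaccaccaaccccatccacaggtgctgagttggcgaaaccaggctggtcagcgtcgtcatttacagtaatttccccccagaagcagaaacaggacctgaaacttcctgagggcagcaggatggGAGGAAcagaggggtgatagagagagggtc
C1qc, chr4:136893066-136893164, minus strand: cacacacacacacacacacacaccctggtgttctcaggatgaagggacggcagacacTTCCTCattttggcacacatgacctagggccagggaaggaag
C3, chr17:57228137-57228386, minus strand: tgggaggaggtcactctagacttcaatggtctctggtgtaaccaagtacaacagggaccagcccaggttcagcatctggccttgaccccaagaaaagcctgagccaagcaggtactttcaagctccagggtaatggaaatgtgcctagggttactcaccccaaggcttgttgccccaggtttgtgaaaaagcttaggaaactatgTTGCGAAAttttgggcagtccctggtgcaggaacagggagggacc
C3ar1, chr6:122856162-122856407, minus strand: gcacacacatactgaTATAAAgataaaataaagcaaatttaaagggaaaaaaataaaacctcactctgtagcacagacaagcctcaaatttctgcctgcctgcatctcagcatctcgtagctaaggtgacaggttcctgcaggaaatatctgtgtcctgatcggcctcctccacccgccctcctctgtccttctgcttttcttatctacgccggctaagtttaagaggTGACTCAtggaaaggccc
GAGGAA was found once before *C1qb*, 30 bases from the start, and once on the other strand before *C1qc*, 193 bases from the RefSeq start; 23.3% of 32851 promoters of that length hold it. *C3* had 1 match to TTGCNNAA, 45 bases before the start (9.56% of promoters), and *C3ar1* had 1 match to TGANTCA at 22 bases (6.75%) and 1 to TATAAA at 235 bases (12.4%). No match to any of these letters lay in the windows of *Cfp* and *C5ar1*. A match is a stretch of letters and not a measured binding site.

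The libraries held 12783252 to 22809401 reads counted on genes. The cells carried cDC2 genes at high levels: *H2-Ab1*, *Sirpa*, *Flt3* and *Zbtb46* had mean levels of 16200 to 28800, 470 to 753, 177 to 256 and 122 to 142 TPM over the 3 groups. Macrophage markers were mixed. *Emr1*, the older symbol of *Adgre1* (F4/80), had group means of 173 to 207 TPM, whereas *Fcgr1* (CD64), *Cd5l*, *Marco*, *Siglec1* and *Mrc1* had group means under 1 TPM and *Cd5l* and *Marco* were at 0 in 1 library each. Library 81 of TOM- DC2 stood apart in neutrophil markers, with a summed level of 43.7 TPM over the 9 markers found, against 5.37 to 11.04 in the other libraries. In bulk RNA, fewer cells of a type and less RNA per cell cannot be told apart.

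The 8 genes differed widely in level. *Cfp* was by far the most abundant, at 615 ± 31.6 TPM (SD, n = 3) in young TOM+ cDC2, 654 ± 28.5 TPM in TOM- DC2 and 542 ± 30.3 TPM in adults, and ranked 224, 207 and 248 among the 24054 genes by mean TPM. The C1q genes came next in every group, with *C1qb* above *C1qa* in all 9 libraries, at a ratio of 1.41 to 2.02, and *C1qc* at 0.75 to 1.2 times *C1qa*. *Cfb* had 5.15 to 9.28 TPM, and *C3*, *C3ar1* and *C5ar1* had 0.22 to 6.87 TPM. In TOM+ cDC2 from young mice the order by mean was *Cfp*, *C1qb*, *C1qa*, *C1qc*, *Cfb*, *C3ar1*, *C3*, *C5ar1*, and the libraries of neighbours in it did not overlap. In TOM- DC2 they overlapped for *C1qa* and *C1qc*, *C3ar1* and *C3*, and *C3* and *C5ar1*. In adults *C3* stood above *C5ar1*, and *C3ar1* came last. There the libraries of all 3 C1q genes overlapped.

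**Figure D1:**
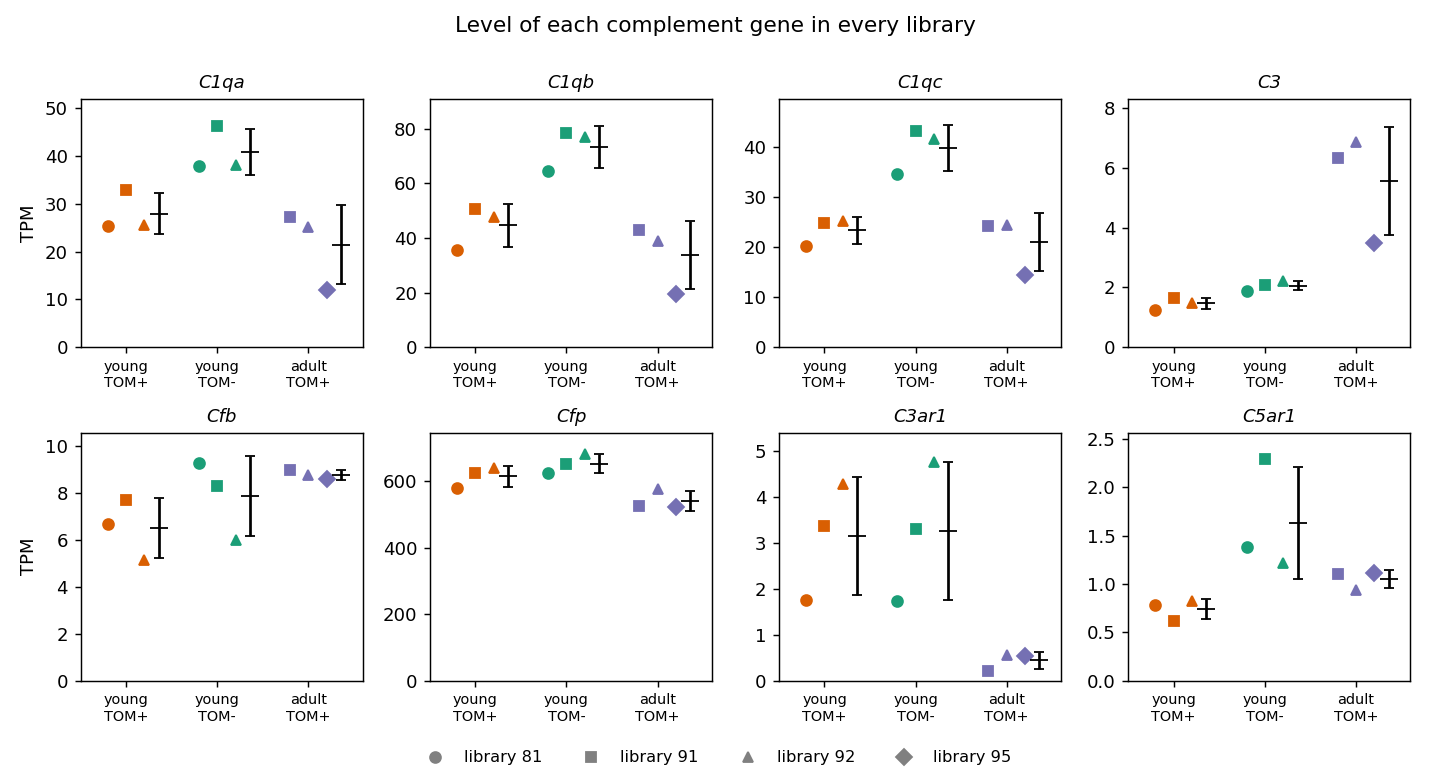
TPM of each of the 8 complement genes in every library (symbols give the library number, colours the group, black marks the mean and SD of 3 libraries; each panel has its own linear axis from 0). The C1q genes were highest in TOM- DC2, *C3* was highest in all 3 adult libraries and *C3ar1* lowest in them, and adult library 95 lay below the other adults for *C1qa*, *C1qb*, *C1qc* and *C3*.

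The comparison of TOM+ cDC2 with TOM- DC2 from the same age asked whether cells with and without a *Clec9a* history differed in these genes. *C1qa* was at 25.3, 32.9 and 25.6 TPM in libraries 81, 91 and 92 of TOM+ cDC2 and at 37.9, 46.3 and 38.1 TPM in the same-numbered libraries of TOM- DC2. *C1qb* was at 35.8, 50.7 and 47.7 TPM against 64.6, 78.3 and 77.1 TPM. *C1qc* was at 20.2, 24.7 and 25.1 TPM against 34.5, 43.1 and 41.5 TPM. All 3 chains of C1q were therefore higher in each TOM- DC2 library than in any TOM+ cDC2 library. On the CPM scale they did not overlap either, as was so for 16.6% of all genes. Pair by pair, TOM- DC2 held 1.41 to 1.5 times the TPM of *C1qa*, 1.55 to 1.81 times that of *C1qb* and 1.66 to 1.74 times that of *C1qc*. The log2FC of TOM+ cDC2 over TOM- DC2 was -0.52 ± 0.25 (SE) for *C1qa*, with an edgeR padj of 0.54. It was -0.69 ± 0.25 for *C1qb*, with an edgeR padj of 0.32, and -0.73 ± 0.21 for *C1qc*, with an edgeR padj of 0.15. These values come from an unpaired fit, in which no C1q gene passed. Libraries with the same number deviated together over the 10112 genes that averaged 50 counts or more (correlations of 0.52 to 0.759). With the number as a replicate block over all 9 libraries the SE fell to 0.09, 0.08 and 0.09 and the edgeR padj to 0.0024, 3.1e-05 and 0.00015 for *C1qa*, *C1qb* and *C1qc*, at log2FC of -0.53, -0.69 and -0.72. In that fit the C1q genes fell in TOM+ cDC2 relative to TOM- DC2, by 1.44- to 1.65-fold, and none reached the log2FC of 1. The block also ties adult libraries 91 and 92 to young ones and leaves adult library 95 alone in its block, so 2 other paired fits were added after seeing the data. In a fit of the 6 young libraries alone, paired by number, the edgeR padj was 0.00015, 2.7e-07 and 4.2e-06. With the young libraries paired and the adults kept in the fit unpaired, so that their spread counted, the SE was 0.22, 0.21 and 0.18 and the edgeR padj 0.31, 0.13 and 0.049, and only *C1qc* passed. Whether *C1qa* and *C1qb* passed therefore depended on how the adult libraries entered the fit, while the log2FC in this last fit was -0.53, -0.70 and -0.73.

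Of the 8 genes, 0 passed a padj of 0.05 in the unpaired edgeR fit, where 1.60% of all genes did and 1355 genes had an unadjusted p under 0.05. DESeq2 passed 1 gene, *C1qc*, with a padj of 0.049. With the block over all 9 libraries 3 passed, all lower in TOM+ cDC2, where 6.57% of all genes passed and 4.34% passed in that direction. With the young libraries paired and the adults unpaired 1 passed, and 2.80% of all genes did. In the paired fit of the young libraries alone 5 passed, the C1q genes, *C3* and *C5ar1*, all lower in TOM+ cDC2, and 11.8% of all genes did. A call required a log2FC beyond 1 as well as the padj. *C5ar1* was called in the last of these fits, where 2.33% of all genes were called, and no gene of the 8 was called in the others, where 1.18% (unpaired), 1.90% (block over all 9 libraries) and 1.46% (adults unpaired) of all genes were. The median log2FC of the 8 genes was -0.50, against 0.0013 over all genes tested.

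*C3* was at 1.26, 1.65 and 1.49 TPM in libraries 81, 91 and 92 of TOM+ cDC2 and at 1.89, 2.09 and 2.21 TPM in TOM- DC2. These groups did not overlap, as was so for 16.6% of all genes, and the log2FC was -0.49 ± 0.26 with an edgeR padj of 0.63, which was 0.036 to 0.46 over the 3 paired fits. *C5ar1* had 21, 16 and 24 reads in TOM+ cDC2 and 28, 57 and 41 in TOM- DC2, or 0.78, 0.62 and 0.82 TPM against 1.38, 2.29 and 1.22 TPM. Its groups did not overlap either, and its log2FC of -1.13 ± 0.33 was the largest of the 8 in size, with an edgeR padj of 0.16, which was 0.024 to 0.13 over the paired fits. Its highest value was in library 91 of TOM- DC2, without which the log2FC was -0.72. Without library 81 of TOM- DC2, which held the most of the neutrophil markers, it was -1.27, and the part of neutrophil RNA in this difference was not tested. For *Cfb*, *Cfp* and *C3ar1* the libraries of both groups overlapped. *Cfp* differed by a log2FC of -0.06, with a 95% interval of -0.27 to 0.16, and *Cfb* by -0.26, with an interval of -0.60 to 0.09. *C3ar1* differed by -0.03 with the wider interval of -0.87 to 0.80, which the block over all 9 libraries narrowed to -0.32 to 0.32.

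Macrophage markers moved with the C1q genes. The summed level of the 15 markers on the list was 309 to 348 TPM in TOM+ cDC2 and 369 to 426 TPM in TOM- DC2, without overlap. *Emr1* was the largest part of that sum and did not pass (log2FC -0.11, edgeR padj 0.87). With the block over all 9 libraries 9 of the 15 passed, as many as in the paired fit of the young libraries alone, and 6 passed with the adults unpaired. In the first of these fits *Mertk*, *Vcam1*, *Spic*, *Hmox1*, *Slc40a1* and *Axl* were lower in TOM+ cDC2, by log2FC of -0.50 to -1.18, and *Cd163* and *Timd4* were higher, by 0.94 and 1.06. *Spic*, a transcription factor of iron-recycling red pulp macrophages, was at 44.2, 47.8 and 41.9 TPM in TOM+ cDC2 and at 62.1, 81.6 and 52.3 TPM in TOM- DC2. *Hmox1*, which degrades heme, was at 39.1, 56.1 and 39.4 TPM against 70.8, 80.4 and 67.1 TPM. Both were higher in TOM- DC2 in each numbered pair, as the C1q genes were. In the unpaired fit 1 of the 15 passed, *Cd163*, which was higher in TOM+ cDC2. The part of macrophage RNA in the difference of the C1q genes was not tested.

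**Figure D2:**
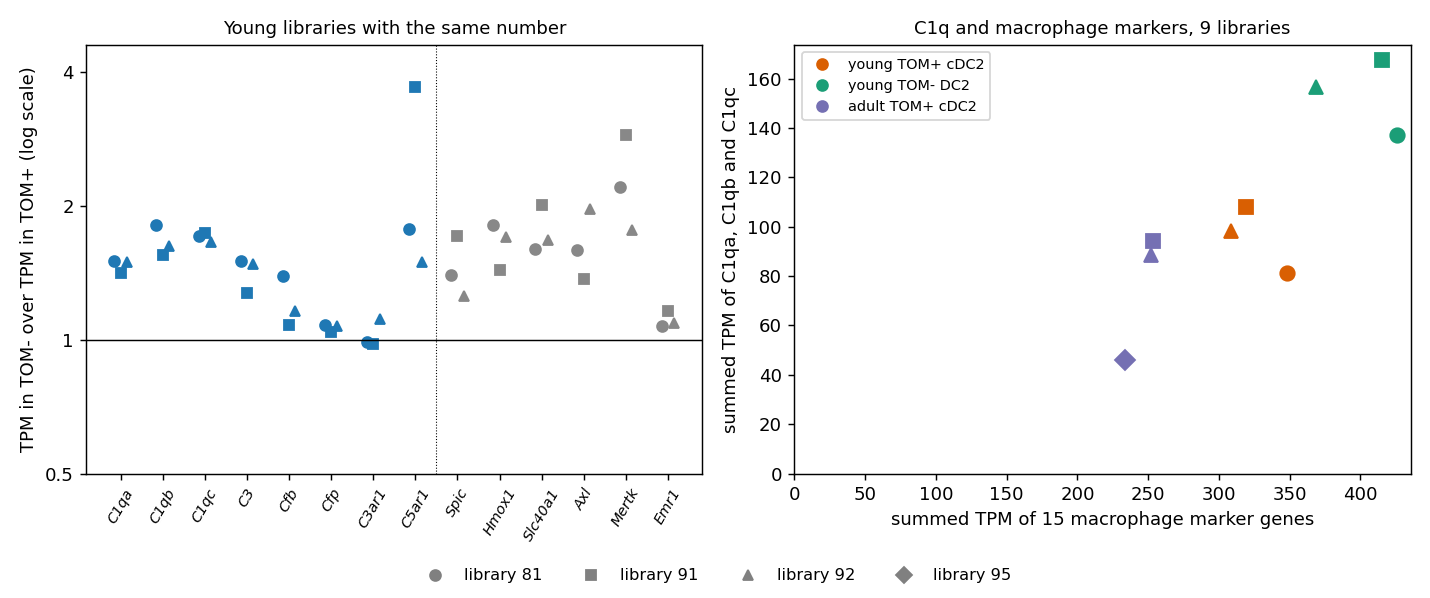
Left, the TPM of TOM- DC2 divided by that of TOM+ cDC2 for each pair of young libraries with the same number (log axis), for the 8 complement genes in blue and 6 macrophage markers in grey; all 3 pairs lay above 1 for *C1qa*, *C1qb* and *C1qc* and for each marker shown, whereas *Cd163* and *Timd4*, not drawn, were higher in TOM+ cDC2. Right, the summed TPM of the C1q genes against that of 15 macrophage markers in the 9 libraries; TOM- DC2 lay highest on both axes, and adult library 95 lowest, at 45.9 TPM of C1q.

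The comparison of young with adult TOM+ cDC2 asked what changed with age in cells of the same history. *C3* was at 1.26, 1.65 and 1.49 TPM in young and at 6.31, 6.87 and 3.50 TPM in adult libraries 91, 92 and 95. Every adult library held more than any young one, including adult library 95, the lowest of its group. The log2FC of young over adult was -2.06 ± 0.25 (4.16-fold lower in young), with an edgeR padj of 4.6e-05. *C3ar1* went the other way. Its TPM was 1.76, 3.38 and 4.30 in young libraries 81, 91 and 92, from 85, 148 and 223 reads, and 0.22, 0.57 and 0.54 in adult libraries 91, 92 and 95, from 7, 18 and 22 reads. The lowest young library lay above the highest adult one. Neither *C3* nor *C3ar1* overlapped between these groups, as was so for 51.1% of all genes. The log2FC of *C3ar1* was 2.72 ± 0.49 (6.61-fold higher in young), with an edgeR padj of 0.00083. The ligand precursor gene and its receptor gene thus changed in opposite directions: *C3* stood at 0.347 to 0.716 times the TPM of *C3ar1* in young TOM+ cDC2 and at 6.48 to 28.7 times in adults, the latter ratio resting on the low adult counts of *C3ar1*.

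*C3* and *C3ar1* were the only genes of the 8 called between young and adult TOM+ cDC2, and both remained called in each of the 18 alternatives. Over all genes 12.8% were called, 5.96% higher and 6.86% lower in young, the background against which 2 of 8 stands. *Cfb* was at 6.68, 7.70 and 5.15 TPM in young and at 8.98, 8.74 and 8.57 TPM in adult libraries. The groups did not overlap, as was so for 51.1% of all genes, and *Cfb* was lower in young by a log2FC of -0.50 ± 0.16, with an edgeR padj of 0.026, which rose to between 0.058 and 0.1 in 6 of 18 alternatives. With it 3 of 8 passed the padj alone, as 40.6% of all genes did.

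The C1q genes did not pass between young and adult TOM+ cDC2. Adult libraries 91, 92 and 95 had 27.1, 25.2 and 11.99 TPM of *C1qa*, 43.1, 38.9 and 19.5 TPM of *C1qb* and 24.2, 24.4 and 14.4 TPM of *C1qc*. Libraries 91 and 92 lay within or next to the young range, and library 95 lay below every young library for all 3 genes. The log2FC of young over adult was 0.27 for *C1qa* (95% interval -0.29 to 0.83), 0.29 for *C1qb* (-0.27 to 0.86) and 0.04 for *C1qc* (-0.43 to 0.52). Without adult library 95 these became -0.04, -0.01 and -0.20. *Cfp* had 579, 627 and 639 TPM in young and 525, 577 and 523 TPM in adult libraries, without overlap, but on edgeR's scale, where the libraries overlapped, its log2FC was 0.07 (95% interval -0.15 to 0.28); TPM is a share of the library, whereas edgeR applies scaling factors, which were 0.894 to 0.928 in adults and 1.02 to 1.06 in young TOM+ cDC2. *C5ar1* was at 1.10, 0.94 and 1.11 TPM in adults, above all young TOM+ libraries, with a log2FC of -0.65 (95% interval -1.41 to 0.11) and an edgeR padj of 0.16. Summed macrophage markers came to 234 to 253 TPM in adults, below young TOM+ cDC2. Of all genes 40.6% passed the padj between young and adult TOM+ cDC2. Of the 15 markers 6 passed it as higher in young, among them *Hmox1* (1.52), *Slc40a1* (1.55) and *Cd163* (2.18 on the log2 scale), and *Vcam1* passed as lower. The part of macrophage RNA in these differences was not tested.

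TOM- DC2 were set against the same adult TOM+ cDC2 libraries, so both comparisons with adults share their adult values, and age and TOM history differ together in the second. *C3* was lower in TOM- DC2 than in adults by a log2FC of -1.56 ± 0.24 (edgeR padj 0.00035). *C3ar1* was at 1.74, 3.31 and 4.76 TPM in libraries 81, 91 and 92 of TOM- DC2 and higher than in adults by 2.76 ± 0.49 (edgeR padj 0.00088). These 2 genes were called, as were 11.3% of all genes (6.50% higher and 4.78% lower in TOM- DC2). *C1qa*, *C1qb* and *C1qc* were higher in TOM- DC2 than in adults, by log2FC of 0.79 ± 0.25, 0.98 ± 0.26 and 0.77 ± 0.21, with edgeR padj of 0.028, 0.01 and 0.014. Their groups did not overlap, as was so for 47.6% of all genes. In all 5 of the 8 genes passed the padj alone, 4 of them higher in TOM- DC2, against 36.3% of all genes, 19.4% being higher. Without adult library 95 the log2FC of the C1q genes was 0.48, 0.68 and 0.53, and *C1qa* had an edgeR padj of 0.052. *C1qa* did not pass either without library 91 or without library 92 of TOM- DC2 (edgeR padj 0.1 and 0.054), nor *C1qc* without library 91 (0.052), whereas *C1qb* passed whichever library was left out. The summed macrophage markers were higher in every TOM- DC2 library than in any adult one, with 7 of 15 markers past the padj, all higher in TOM- DC2; their part in the C1q difference was not tested. *Cfb*, *Cfp* and *C5ar1* had log2FC of -0.24, 0.12 and 0.48 and did not pass.

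**Figure D3:**
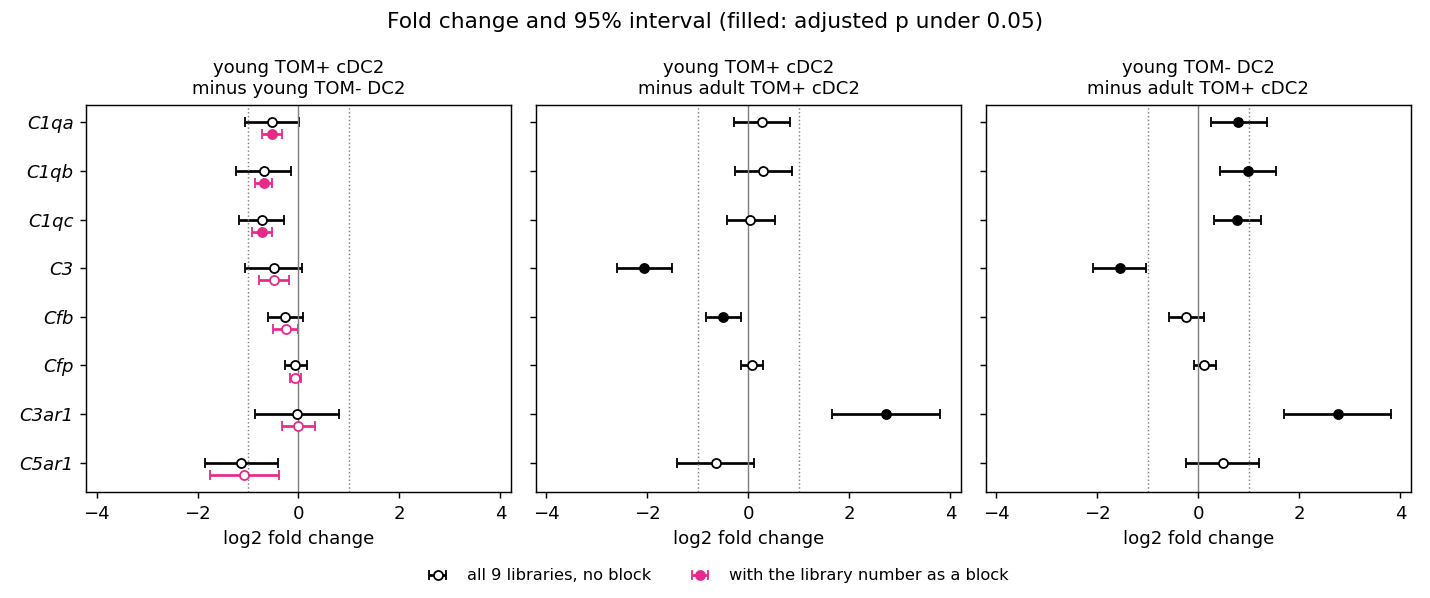
log2 fold change of the 8 genes in each comparison with its 95% interval (edgeR, n = 3 libraries a group; filled points have an adjusted p under 0.05; pink, the fit with the library number as a block over all 9 libraries; dotted lines, a log2FC of 1 in either direction). *C3* and *C3ar1* lay beyond 1 against adults in opposite directions, and the intervals of the C1q genes in the young comparison narrowed with the block.

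*C3ar1* also varied between the young libraries, and in the same way in both sorted groups. Relative to the mean of its group on the log2 CPM scale, it was at -0.70, 0.21 and 0.50 in libraries 81, 91 and 92 of TOM+ cDC2 and at -0.75, 0.14 and 0.61 in those of TOM- DC2. Library 81 was thus the lowest and library 92 the highest in both, so that the ratio between the groups stayed at 0.979 to 1.11 in the numbered pairs.

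Genes whose log2(CPM + 1) ran most like that of each member were sought among 10112 genes that averaged 50 counts or more, as a description over 9 libraries that share 3 groups. The nearest to *C1qa* was *C1qb* (Pearson r = 0.968), and the nearest to *C1qb* was *C1qc* (0.974). The nearest to *C1qc* after *C1qb* was *Axl* (0.958), a receptor for dying cells and a gene of the macrophage list, and *Ptpn18*, a tyrosine phosphatase, came next after them for *C1qc* and was also among the nearest 3 for *C1qa* and *C1qb* (0.927 for *C1qa*, 0.954 for *C1qb* and 0.937 for *C1qc*). *C3* lay nearest to *Hsf1* (0.989), *C3ar1* to *Cenpa* (0.992), *Cfb* to *Ago1* (0.986) and *Cfp* to *Katna1* (0.961). The best match of *C5ar1* was weaker (*Ncoa7*, 0.848).

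The rest of the complement system was read from 45 further genes in 5 lists. Of 15 genes of the classical and lectin pathways, 7 had enough reads to be tested. *C2*, whose product pairs with C4 in the classical convertase, had 30, 29 and 38 reads in young TOM+ cDC2, 30, 49 and 41 in TOM- DC2 and 12, 3 and 14 in adults. It was higher in both young groups than in adults, by log2FC of 1.19 (edgeR padj 0.041) and 1.57 (0.011). *Masp1*, a protease of the lectin pathway, had 4, 9 and 16 reads in TOM- DC2 and 0 in each adult library, at least 2.09-fold higher against a floor of 3 reads per library. The remaining 5 tested genes of the list did not pass in any comparison. *Cfd*, the protease that cleaves factor B, was listed at 0 TPM in all 9 libraries and was not tested. Of 7 terminal pathway genes 3 were tested, and *C6* passed between young and adult TOM+ cDC2 with 0 reads in each young TOM+ library and 8, 0 and 4 in adults. Its groups overlapped, adult library 92 having 0 reads too, so no lower bound on the fold is given. *C8g* was lower in young TOM+ cDC2 than in adults by -0.61 (edgeR padj 0.022).

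Of 14 regulators 8 were tested. *Cr1l*, the rodent membrane inhibitor Crry, was the most abundant regulator, at 73.9 to 83.2 TPM in the 9 libraries, and did not pass in any comparison. *Susd4* was higher in young than in adult libraries in both comparisons, at 8 to 26 reads in the young libraries and 1 to 4 in adults (edgeR padj 0.022 and 0.029).

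Of 8 other receptors 7 were tested. *C5ar2*, the second receptor for C5a, had 21, 11 and 15 reads in young TOM+ cDC2, 13, 21 and 25 in TOM- DC2 and 55, 72 and 105 in adults. All adult libraries exceeded all young ones. Of all genes, 51.1% did not overlap between young TOM+ cDC2 and adults, and 47.6% did not between TOM- DC2 and adults. The log2FC of *C5ar2* was -2.84 (edgeR padj 1.1e-05) in young TOM+ and -2.47 (3.2e-05) in TOM- DC2 over adults. *C5ar2* thus rose with age, and *C3ar1* fell, while *C5ar1* did not pass. *Cr2*, the receptor for C3d best known from B cells, was also higher in adults, with 69, 70 and 88 reads against 3 to 30 in young TOM+ cDC2 (edgeR padj 0.00039) and 25 to 43 in TOM- DC2 (0.0041). B cell markers did not all move with it, their sum being 57 to 73.95 TPM in adults, 61.8 to 72.01 in young TOM+ cDC2 and 81.3 to 95.1 in TOM- DC2: *Ms4a1* and *Blk* were higher in adults than in both young groups, whereas *Cd79b* was lower; the part of B cell RNA in *Cr2* was not tested. *Cd93* was higher in adults than in TOM- DC2 (log2FC -2.62, edgeR padj 0.0081), at 25 to 32 reads against 1 to 12.

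*C1qbp*, a mitochondrial protein that can bind C1q, was at 156 to 189 TPM in young and 89.4 to 101 TPM in adult libraries, and was higher in young TOM+ cDC2 by a log2FC of 0.79 (edgeR padj 1.4e-05) and in TOM- DC2 by 0.69 (4.9e-05). The subunits of the integrin receptors for iC3b include the proteins on which the cells were sorted. *Itgam* (CD11b) was higher in young than in adult cells, by log2FC of 0.78 in TOM+ and 0.75 in TOM-, and *Itgax* (CD11c) and their shared partner *Itgb2* were lower, by -0.47 and -0.34 in TOM+. None of these passed between the young groups. *Vsig4*, the macrophage receptor for C3b, was not tested, being near 0 throughout.

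**Figure D4:**
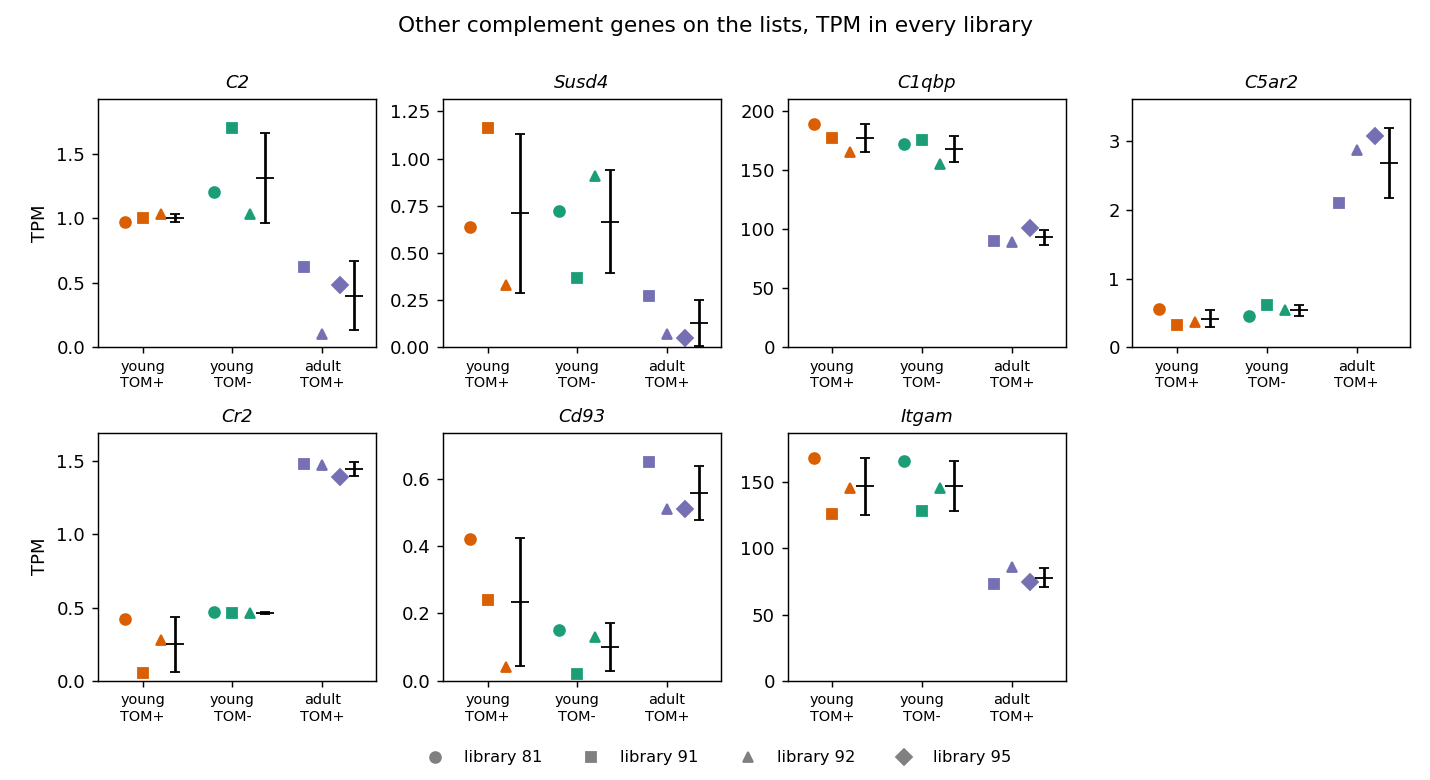
TPM in every library of 7 complement genes from the lists that are not among the 8 components and receptors above (symbols give the library number, black marks the mean and SD of 3 libraries; linear axes from 0). *C2*, *C1qbp* and *Itgam* were lower in all 3 adult libraries than in any young one, and *C5ar2*, *Cr2* and *Cd93* higher.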

How the data were processed

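Poly(A) RNA of 9 libraries (SMART-seq chemistry, single-end reads) had been aligned by the authors to mm10 with STAR and quantified with RSEM; their versions are not given in the sources used here. The deposited counts are STAR's reads per gene, not normalized, and the unstranded column was used because the chemistry keeps no strand. Reads from antisense genes therefore cannot be separated, and genes with near-identical copies (*C4a* and *C4b*, *C1ra* and *C1rb*, *Cd59a* and *Cd59b*) are uncertain. STAR's summary lines were left out. The deposited TPM, relative to each library's total, give the levels; the deposited expected counts of RSEM, rounded to whole numbers, served as an alternative, and the deposited FPKM were not used. Listed genes were matched by symbol, *Adgre1* as *Emr1* and *Cd55b* as *Daf2* through RefSeq synonyms; *Ly6g* and *Trac* were not matched.

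Counts of all 9 libraries in 3 groups were fitted in R 4.3.3 with edgeR 4.0.16 (TMM, quasi-likelihood test, Benjamini-Hochberg adjustment over the 14452 genes that averaged 1 count or more). A call needed an adjusted p (padj) under 0.05 and a log2FC of more than 1 up or down, and intervals are 95%. The alternatives were DESeq2 1.42.0, limma 3.58.1 on log2(TPM + 1) and log2(TPM + 0.1), DESeq2's size factors, RSEM counts, stricter and no count filters, a replicate block over the number in all 9 libraries and leaving out each library; 2 other paired fits, of the 6 young libraries alone and of all 9 with only the young libraries paired, were added after seeing the data. Same-numbered young libraries deviated together over the genes that averaged 50 counts or more (r = 0.759, 0.536 and 0.52 for 81, 91 and 92). The number was therefore taken as pairing the young groups. What it marks is not given in the sources used here. Libraries 91 and 92 of young and adult mice (r = 0.008 to 0.182) were not taken as pairs, although the block over all 9 libraries ties them, and adult library 95, alone in its block, carries no weight there; its values against adults are therefore not used as paired results. Mice behind each library are not named, so p-values measure the spread between these libraries. Floors of 3 reads cover counting error only. Named were all 8 members, other listed complement genes called in any comparison or above 50 TPM in a group, markers that define a cell type, and the genes nearest in pattern; results for some listed genes are not reported here. The members and lists were chosen with earlier results of these data known.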

Additional observations from a re-analysis of the deposited data

How the results depend on the processing

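*C3* and *C3ar1* kept their direction and stayed past the adjusted p against adults in all 18 alternatives of both comparisons. Over the 448 log2FC of the 8 genes under an alternative, 415 kept their direction and side of the threshold, 10 lost and 14 gained it, and 9 turned sign, none of these past the threshold; the cause was not tested. The turns in the young comparison were *Cfp* (0.02) and *C3ar1* (0.27) without TOM+ replicate 1 (library 81) and *C3ar1* (0.37) without TOM- replicate 3 (library 92), the lowest values without 1 library being -0.13 for *Cfp* and -0.35 for *C3ar1*. Those between young and adult TOM+ cDC2 were *C1qa* (-0.04), *C1qb* (-0.01) and *C1qc* (-0.20) without adult replicate 3 (library 95), whose highest values without 1 library were 0.49, 0.51 and 0.19, and *C1qc* without TOM+ replicate 2 or 3 (-0.01 and -0.05) and with the replicate block (-0.07). With the replicate block over all 9 libraries 274 genes were called between the young groups, against 170, and 3 of the 8 complement genes passed the padj, against 0; DESeq2 passed 1, and leaving out single libraries 0 to 1 (*C1qc*, without adult library 95). With the block on the young libraries alone, both forms added after seeing the data, 341 genes were called, 5 of the 8 passed the padj and 1 (*C5ar1*) was called when the adults were left out, and 211 genes were called and 1 of the 8 passed when the adults stayed in unpaired. The block's values against adults rest on numbers that were not taken as pairs. limma on log2(TPM + 1) called 1122 genes for TOM+ cDC2 and 986 for TOM- DC2 against adults, where edgeR called 1853 and 1631. limma on log2(TPM + 0.1) called 4 of the 8 genes between TOM- DC2 and adults, against 2, *C1qa* (1.01) and *C1qb* (1.19) being added; leaving out single libraries gave 2 to 4, the most without adult library 91, and 3 to 5 past the padj, the fewest without library 91 of TOM- DC2, where *C1qa* (padj 0.1) and *C1qc* (0.052) no longer passed. Counts of 7 to 22 reads for *C3ar1* in adults and 16 to 57 for *C5ar1* limit the precision of these genes.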
